A study of Macaca mulatta with 22 samples.

Results

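The morula, the compacting embryo between the 8-cell stage and the blastocyst, was set against both of its neighbours. It is represented by 3 of the 22 rhesus macaque libraries in the series (Mo-1, Mo-2 and Mo-3), each made from 1 embryo, and its neighbours are 2 single 8-cell embryos (8C-1 and 8C-2) and 2 single blastocysts (Bl-1 and Bl-2). The members were taken by these column names, and the question was which genes were higher, or lower, in morulae than in each neighbour stage. No treatment is named for any of the 7 embryos, which came from oocytes fertilised by intracytoplasmic sperm injection and cultured in vitro. Their RNA was amplified with a SMARTer kit that primes on poly(A) and sequenced from TruSeq DNA libraries. The other 15 libraries are oocytes at germinal vesicle, metaphase I and metaphase II (GV, MI, MII) and embryos at the pronuclear, 2-cell and 4-cell stages (PN, 2C, 4C). The labels give no animal of origin for any library, so the p-values below reflect only how far single cells or embryos of a stage differ.

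In primate embryos the embryonic genome is activated in force around the 8-cell stage, when homeobox genes such as DUXA, LEUTX and ARGFX are transcribed in a short burst. At the morula stage the cells flatten against each other and polarise, and outer and inner cells begin to take different paths. The blastocyst that follows has an outer epithelium, the trophectoderm, around a fluid-filled cavity, and an inner cell mass. A gene that is highest at the morula is high after that burst and before the cavity is complete.

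Library Mo-2 stood apart from the other morulae. By an estimate from the low RPKM values the 7 libraries held between 5.57 and 20.49 M reads, the lowest being 8C-2, with 15.84, 20.07 and 17.54 M for Mo-1, Mo-2 and Mo-3. At least 1 RPKM was reached by 7262, 4277 and 6763 entries in Mo-1, Mo-2 and Mo-3, by 9497 and 9352 in the 8-cell embryos and by 7801 and 9076 in the blastocysts, so all 3 morulae had fewer detected entries than any neighbour. The correlation of log2(RPKM + 1) across entries was 0.952 between Mo-1 and Mo-3, but 0.74 and 0.745 between Mo-2 and these libraries. Of 6000 entries at 1 RPKM or more in both Mo-1 and Mo-3, 833 were listed at 0 in Mo-2, and 82 entries at 10 RPKM or more in Mo-2 were under 1 RPKM in Mo-1 and Mo-3. Counts of calls below are therefore given with and without Mo-2. RPKM divides by the library's own total, so fewer cells of a type and less RNA of a gene per cell cannot be told apart.

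More genes fell than rose at the morula, and few were extreme there in either direction against both neighbours. Of 35468 deposited entries, 14312 reached 1 RPKM in at least 2 of the 22 libraries and were tested with limma on log2(RPKM + 1), with Benjamini-Hochberg adjustment over all of them and a call at an adjusted p under 0.05. Against the 4 neighbour libraries pooled, 493 entries were higher in morulae (3.44% of those tested) and 2597 were lower (18.1%); without Mo-2 these were 588 (4.11%) and 1816 (12.7%). Against the 8-cell embryos alone 771 were higher (5.39%) and 2865 lower (20%), and against the blastocysts alone 303 were higher (2.12%) and 1721 lower (12%). Without Mo-2 the counts were 1143 (7.99%) and 2574 (18.0%) against the 8-cell embryos and 443 (3.1%) and 1456 (10.2%) against the blastocysts. By stage means alone 1961 entries (13.7%) lay above both neighbours and 6266 (43.8%) below both, and 2255 (15.8%) and 5411 (37.8%) without Mo-2. The median log2 change of all tested entries against the pooled neighbours was -0.45, and -0.32 without Mo-2. Rescaling the libraries by median-of-ratios size factors moved that median by 0.12 and gave 1034 higher and 2460 lower entries, so the share of higher calls went up to 29.6%, against 16% without rescaling.

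An entry counted as a morula peak if it was above both neighbours, and as a trough if it was below both, taking the larger of the 2 limma p-values and adjusting it over all 14312 entries. There were 24 peaks (0.168%) and 122 troughs (0.852%), and in every one the 3 morulae lay outside the range of the 4 neighbours. For comparison, 315 of all tested entries (2.2%) had all 3 morulae above all 4 neighbours and 1459 (10.2%) had them below. With Mo-2 set aside, Mo-1 and Mo-3 were above all 4 in 790 (5.52%) and below in 1814 (12.7%). Without Mo-2 there were 67 peaks (0.468%) and 93 troughs (0.65%), of which 17 and 79 were also called with it. The rescaled table gave 74 peaks and 118 troughs. The counts also rest on single neighbour embryos: there were 14 peaks without 8C-2 and 12 without Bl-1, and 79, 76 and 79 troughs without 8C-1, 8C-2 and Bl-2. When only the 7 libraries of these stages were fitted, 0 peaks and 0 troughs passed in limma, with 82 and 444 at an unadjusted p under 0.05; the calls above use the spread within all 9 stages.

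**Figure D1:**
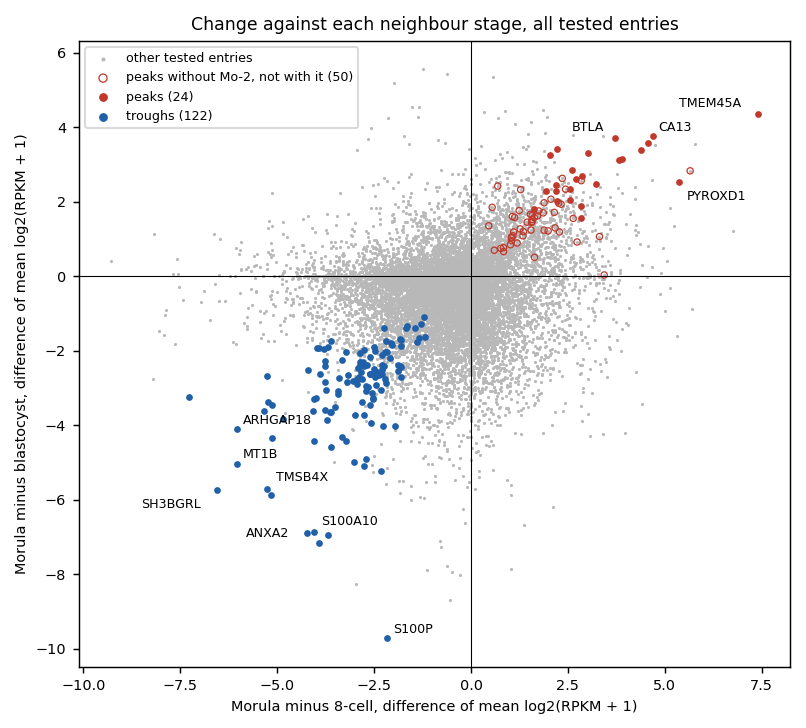
Each point is 1 of the 14312 tested entries, with the log2 change of morulae against 8-cell embryos on the x axis and against blastocysts on the y axis. Filled red points are the 24 peaks, open red circles the 50 entries that were peaks with Mo-2 left out but not with it, and blue points the 122 troughs. The peaks fill the upper right and the troughs the lower left, with TMEM45A and SH3BGRL far out in each.

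Levels are given here for 2 genes that had been proposed to mark the stage. Both belong to a panel chosen with earlier results of these data known, so they are no independent check of the stage label. TMEM45A, a multi-pass membrane protein, had 225, 275 and 591 RPKM in the morulae, 0.579 and 1.45 RPKM in the 8-cell embryos and 4.999 and 43.1 RPKM in the blastocysts. The highest neighbour, Bl-2, was below Mo-1, the lowest morula. Its mean was 364 ± 198 RPKM in morulae (SD, n = 3), 1.01 ± 0.615 in 8-cell embryos and 24.03 ± 26.9 in blastocysts (n = 2 each). On the log2 scale it rose by 7.41 ± 0.66 against the 8-cell embryos and 4.36 ± 0.66 against the blastocysts (± SE), the largest smaller-of-both change among the named peaks (limma adjusted p = 0.00213, and 0.00183 without Mo-2). ARGFX, a PRD-like homeobox gene, had 2499, 479.5 and 2322 RPKM in the morulae, 1216 and 435 RPKM in the 8-cell embryos and 582 and 129 RPKM in the blastocysts. Its morulae overlapped both neighbours, since Mo-2 was below 8C-1 and Bl-1, and it passed against neither (limma adjusted p = 0.481 against 8-cell embryos and 0.0802 against blastocysts). Against the pooled neighbours its adjusted p was 0.114, and 0.0261 without Mo-2 and 0.0251 with Mo-2 kept after rescaling. Of the 2 markers only TMEM45A set the morulae apart from both neighbours.

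DUXA, LEUTX and ZSCAN4, which belong to the same activation burst, were not peaks either. DUXA, a PRD-like homeobox gene, had 3571, 565 and 1923 RPKM in the morulae, 4272 and 3172 RPKM in the 8-cell embryos and 20.3 and 51.7 RPKM in the blastocysts. Morulae and 8-cell embryos overlapped, and both blastocysts were lower. LEUTX (IMMRNTR1244), a related factor, had 23.6, 0.17 and 6.404 RPKM in the morulae, 805 and 1528 RPKM in the 8-cell embryos and 17.2 and 1.91 RPKM in the blastocysts, with the morulae below both 8-cell embryos. ZSCAN4, a zinc-finger gene of the 8-cell burst, had 550.1, 283 and 235 RPKM in the morulae, 728 and 361 RPKM in the 8-cell embryos and 2.69 and 15.4 RPKM in the blastocysts, again overlapping the 8-cell embryos only. Among pluripotency genes, NANOG had 144, 107 and 101 RPKM in the morulae, 17.4 and 5.77 RPKM in the 8-cell embryos and 130.5 and 48.5 RPKM in the blastocysts, which set the morulae above the 8-cell embryos (limma adjusted p = 0.00038) but not the blastocysts (0.718). The DNA methyltransferase cofactor DNMT3L had 22.99, 14.7 and 33.8 RPKM in the morulae, 0 and 0.521 RPKM in the 8-cell embryos and 231 and 84.1 RPKM in the blastocysts and lay between its neighbours without overlap. Over the 28 tested pluripotency genes, however, 8 fell and 4 rose against the pooled neighbours (18.1% and 3.44% of all tested entries). GDF3 of that list was a trough after rescaling (limma adjusted p = 0.0381) and without Mo-1 (0.0197), but not with all libraries. Of the 24 panel genes, 20 were tested, and KLF5, SLC2A3, CCND1 and H2AZ1 were not. By correlation of the 9 stage means of log2(RPKM + 1), the genes most like ARGFX were RPL14, SGK1, DHX15, L1TD1, TGIF1 and KHDC1L (r of 0.99 to 0.996), and of these only L1TD1 was a peak. The points share all libraries, and the correlation is given with no test.

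The named peaks that encode enzymes and transporters are given first, grouped by known role with no list or test behind the grouping. Among the 12 ranked peaks the smaller of the 2 log2 changes ran from 2.19 for L1TD1 to 4.36 for TMEM45A. CA13, a cytosolic carbonic anhydrase, had 18.4, 111 and 11.5 RPKM in the morulae, 0.093 and 0.228 RPKM in the 8-cell embryos and 0.791 and 1.77 RPKM in the blastocysts. The morulae were all above the neighbours, and Mo-2 was well above Mo-1 and Mo-3. The rise was 4.69 ± 0.57 against the 8-cell embryos and 3.75 ± 0.57 against the blastocysts on the log2 scale (limma adjusted p = 0.00234, and 3.13e-05 without Mo-2). PPAT, which catalyses the first committed step of purine synthesis, had 87.7, 231 and 66.5 RPKM in the morulae, 8.14 and 5.75 RPKM in the 8-cell embryos and 10.9 and 12.9 RPKM in the blastocysts. The groups did not overlap, and Mo-3 and Bl-2 came closest (limma adjusted p = 0.00374, and 0.00625 without Mo-2). SLC7A2, a transporter of cationic amino acids, had 19.6, 22.2 and 27.6 RPKM in the morulae, 0.046 and 1.43 RPKM in the 8-cell embryos and 0.213 and 4.96 RPKM in the blastocysts, and its 3 morulae were close to each other. No morula reached into the range of the neighbours, of which Bl-2 was the highest (limma adjusted p = 0.00504, and 0.00761 without Mo-2, but 0.113 without Bl-1). ENO2, an isoform of the glycolytic enzyme enolase, had 6.93, 6.98 and 5.22 RPKM in the morulae, 0.277 and 0.153 RPKM in the 8-cell embryos and 0 and 0.04 RPKM in the blastocysts. These levels were low but close together, and ENO2 had the smallest p of all peaks called with Mo-2 (limma adjusted p = 5.91e-06, and 7.27e-06 without Mo-2). That p also draws on the spread in the stages from GV to 4C, where the ENO2 means were 0 to 0.0193 RPKM.

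DGAT2, which makes triglycerides, had 2.78, 4.34 and 6.24 RPKM in the morulae, 0.00997 and 0.256 RPKM in the 8-cell embryos and 0.321 and 0.273 RPKM in the blastocysts. All morulae were above Bl-1, the highest neighbour (limma adjusted p = 0.00551, and 0.0108 without Mo-2, but 0.0551 without Bl-2). PYROXD1, an oxidoreductase, had 61.4, 65.6 and 34 RPKM in the morulae, 0.049 and 0.543 RPKM in the 8-cell embryos and 6.36 and 10.4 RPKM in the blastocysts. The 8-cell embryos were near 0 and the blastocysts between them and the morulae (limma adjusted p = 0.00622, and 0.0164 without Mo-2, but 0.0939 without Bl-1). AKR1B10, an aldo-keto reductase, had 142, 114 and 47.4 RPKM in the morulae, 10.2 and 13.6 RPKM in the 8-cell embryos and 17.1 and 10.6 RPKM in the blastocysts. Even Mo-3, the lowest morula, was above Bl-1 (limma adjusted p = 0.0271, and 0.0396 without Mo-2, but 0.0695 to 0.22 without 8C-1, 8C-2, Mo-1, Bl-1 or Bl-2). SLCO1A2, an organic anion transporter, had 5.53, 24.3 and 13.2 RPKM in the morulae, 0.018 and 0.966 RPKM in the 8-cell embryos and 0.03 and 4.55 RPKM in the blastocysts. Mo-1 and Bl-2 were close (limma adjusted p = 0.0439, and 0.114 without Mo-2, also 0.0582 to 0.632 without 8C-1, 8C-2, Mo-3 or Bl-1).

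Named peaks with other roles follow. BTLA, an inhibitory receptor best known from lymphocytes, had 51.8, 65.9 and 53.7 RPKM in the morulae, 4.42 and 2.52 RPKM in the 8-cell embryos and 0.718 and 10.6 RPKM in the blastocysts. The 3 morulae were close together and far above the neighbours. The rise was 3.73 ± 0.52 against the 8-cell embryos and 3.69 ± 0.52 against the blastocysts on the log2 scale (limma adjusted p = 0.000938, and 0.00165 without Mo-2). L1TD1, an RNA-binding protein derived from a LINE-1 element, had the highest levels of the named peaks, at 552, 701 and 577 RPKM in the morulae, 129 and 135 RPKM in the 8-cell embryos and 115 and 108 RPKM in the blastocysts. The 4 neighbours were at one level and the morulae well above it (limma adjusted p = 0.0347, and 0.0591 without Mo-2, also 0.0586 to 0.138 without 8C-1, 8C-2, Mo-3, Bl-1 or Bl-2). CAB39L, a scaffold of the LKB1 kinase complex, had 52.6, 62.3 and 22.6 RPKM in the morulae, 2.16 and 0.34 RPKM in the 8-cell embryos and 2.696 and 3.56 RPKM in the blastocysts. Mo-3, the lowest morula, was above Bl-2, the highest neighbour (limma adjusted p = 0.0219, and 0.0515 without Mo-2, also 0.0513 to 0.149 without 8C-2, Mo-1, Bl-1 or Bl-2). RB1CC1, needed to start autophagy, had 76.02, 226 and 118 RPKM in the morulae, 19.4 and 17.7 RPKM in the 8-cell embryos and 10.5 and 37.8 RPKM in the blastocysts. The highest neighbour, Bl-2, was below Mo-1, the lowest morula (limma adjusted p = 0.0378, and 0.0757 without Mo-2, also 0.0597 to 0.465 without 8C-1, 8C-2, Mo-3 or Bl-1). CWC22, a splicing factor that loads the exon junction complex, had 34.8, 87.9 and 46.3 RPKM in the morulae, 7.51 and 8.78 RPKM in the 8-cell embryos and 7.16 and 12.8 RPKM in the blastocysts. The groups did not overlap, and Mo-1 and Bl-2 came closest (limma adjusted p = 0.0153, and 0.0227 without Mo-2, but 0.0621 to 0.176 without 8C-1 or Bl-1). TMEM45A, CA13, BTLA, PPAT and ENO2 were called whichever of the 7 libraries was left out. At a pseudocount of 0.1, however, the call of PPAT was lost (limma adjusted p = 0.199). So were those of PYROXD1 (0.198), CAB39L (0.185), SLCO1A2 (0.144), SLC7A2 (0.0645) and L1TD1 (0.572). The calls of CAB39L, RB1CC1, SLCO1A2 and L1TD1 ended without Mo-2 and without several others.

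The remaining peaks were outside the rule for named genes and were listed after their values were seen. They were ESF1, which acts in ribosomal RNA processing, CUL2, a scaffold of ubiquitin ligases, ZYG11A, of a family of its substrate receptors, BOLL, a germline RNA-binding protein, PPP2R3C, MOSC1, CLEC9A and the unnamed entries ENSMMUG00000015833 and ENSMMUG00000006764. ESF1, ZYG11A and CUL2 were not called without Mo-2 (limma adjusted p = 0.0624, 0.109 and 0.0919). The single peak with an IMMRNTR identifier, IMMRNTR5089 (named LOC644961 in the file), had 14.97, 27.2 and 7.23 RPKM in the morulae, 1.07 and 0.787 RPKM in the 8-cell embryos and 0 and 1.47 RPKM in the blastocysts. Every morula was above every neighbour (limma adjusted p = 0.00157, and 0.00172 without Mo-2, but 0.0567 at a pseudocount of 0.1). Mo-2 was the highest morula in 17 of the 24 peaks and the lowest in 2.

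A further 50 entries were peaks when Mo-2 was left out and not when it was kept, and by that choice Mo-2 was low in many of them: it was at 0 in 27 and not above the neighbours' range in 44. With Mo-2 kept, 11 of the 50 were peaks after rescaling, among them CENPL, GOLT1B and NPM1. DPPA3 (IMMRNTR2887), a maternal factor that protects DNA methylation, had the highest levels, with 9943, 2158 and 9082 RPKM in the morulae, 4599 and 3434 RPKM in the 8-cell embryos and 1525 and 1706 RPKM in the blastocysts. Mo-2 was below both 8-cell embryos, and the limma adjusted p was 0.0307 without Mo-2 and 1 with it. NPM1, a nucleolar chaperone of ribosome assembly, had 5651, 2684 and 7011 RPKM in the morulae, 1753 and 811 RPKM in the 8-cell embryos and 2649.7 and 1578 RPKM in the blastocysts. Mo-1 and Mo-3 were above all neighbours (limma adjusted p = 0.0384 without Mo-2, 0.33 with it). UTP11, of the complex that processes small-subunit ribosomal RNA, had 942, 171 and 535 RPKM in the morulae, 264 and 154 RPKM in the 8-cell embryos and 175 and 125 RPKM in the blastocysts. Mo-2 was far below Mo-1 and Mo-3 (limma adjusted p = 0.03 without Mo-2, 0.621 with it). CENPL, a centromere protein, had 27.1, 6.33 and 25.02 RPKM in the morulae, 1.47 and 3.74 RPKM in the 8-cell embryos and 1.45 and 2.29 RPKM in the blastocysts. Mo-1 and Mo-3 were nearly equal (limma adjusted p = 0.00843 without Mo-2, 0.0823 with it). TAF1A, of the RNA polymerase I initiation factor, had 52.6, 0.221 and 55.4 RPKM in the morulae, 12.6 and 6.62 RPKM in the 8-cell embryos and 7.104 and 10.3 RPKM in the blastocysts. Mo-2 was near 0 here, and Mo-1 and Mo-3 were nearly equal (limma adjusted p = 0.026 without Mo-2, 1 with it).

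The other genes named by the rule in this set were FGL1, a secreted fibrinogen-like protein, RHEX, C10ORF116, MAP7D3, a microtubule-associated protein, GOLT1B, of vesicle transport to the Golgi, and PBDC1. FGL1 had 17.8, 0 and 5.68 RPKM in the morulae, 0 and 0 RPKM in the 8-cell embryos and 0 and 0.729 RPKM in the blastocysts, and C10ORF116 had 41.5, 0 and 41.1 RPKM in the morulae, 0.199 and 0.243 RPKM in the 8-cell embryos and 7.99 and 2.77 RPKM in the blastocysts. In both genes Mo-2 was at 0 while Mo-1 and Mo-3 were above every neighbour. Across these 6 genes the limma adjusted p ran from 0.00337 to 0.0467 without Mo-2 and from 0.24 to 1 with it. Set against the 67 peaks called without it, Mo-2 was itself above all 4 neighbours in 23 (34.3%) and below all 4 in 7 (10.4%); over all tested entries these shares were 12.5% and 36.5%. For the 93 troughs called without it, Mo-2 was below all 4 neighbours in 83 (89.2%) and above in 5. No test was made of this difference between peaks and troughs.

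**Figure D2:**
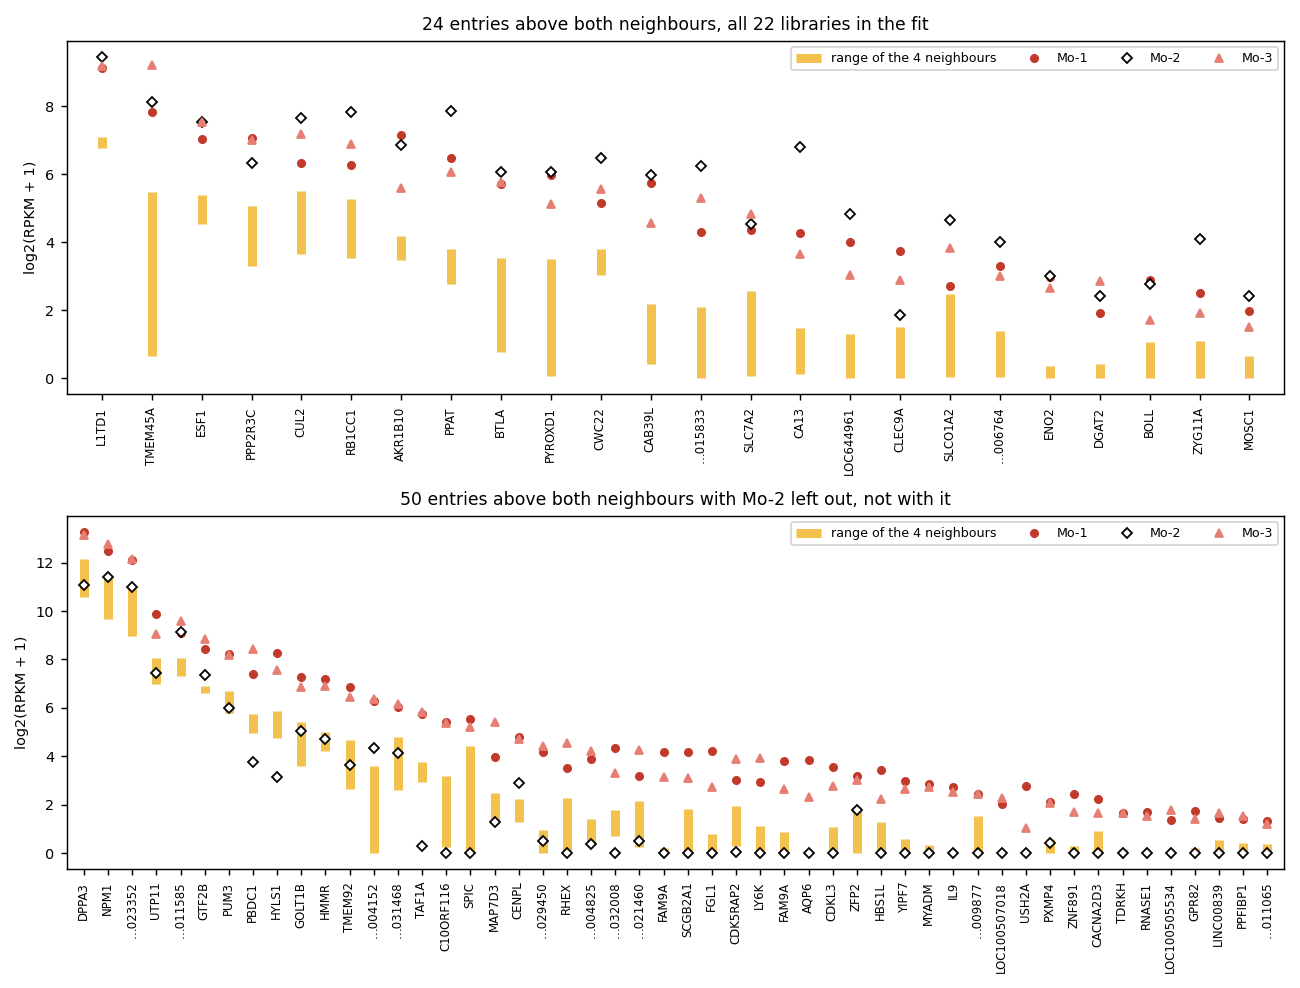
Log2(RPKM + 1) of the 24 peaks (top) and of the 50 entries called with Mo-2 left out but not with it (bottom), ordered by the mean of Mo-1 and Mo-3, with bars for the range of the 4 neighbours and Mo-2 as open diamonds; entries without a symbol carry the end of their identifier. In the top panel all 3 morulae lie above the bar, and in the bottom panel Mo-2 lies on or under the bar in 44 of 50.

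The named troughs are given by the known role of each, which no list or test stands behind, beginning with proteins that bind actin or membranes. TMSB4X, which sequesters actin monomers, had 19.9, 3.198 and 39.1 RPKM in the morulae, 605 and 564 RPKM in the 8-cell embryos and 797 and 790.3 RPKM in the blastocysts. The groups were far apart. TMSB4X fell by 5.26 ± 0.65 against the 8-cell embryos and by 5.71 ± 0.65 against the blastocysts on the log2 scale (limma adjusted p = 0.00032, and 1.76e-05 without Mo-2). Its reads may be split with near-identical copies. ARHGAP18, which switches off RhoA, had 0.63, 0.576 and 1.37 RPKM in the morulae, 115 and 123 RPKM in the 8-cell embryos and 24 and 38.9 RPKM in the blastocysts. No morula reached into the range of the neighbours, of which Bl-1 was the lowest (limma adjusted p = 8.13e-05, and 6.34e-05 without Mo-2). PDLIM1, a PDZ-LIM protein of actin filaments, had 1.73, 0.362 and 4.41 RPKM in the morulae, 61.97 and 189 RPKM in the 8-cell embryos and 57.9 and 18.2 RPKM in the blastocysts. All morulae were below Bl-2, the lowest neighbour (limma adjusted p = 0.00352, and 0.00393 without Mo-2, but 0.0746 without Bl-1). PFN2, a profilin, had 0.935, 0.095 and 0.573 RPKM in the morulae, 9.09 and 24.4 RPKM in the 8-cell embryos and 15.1 and 10.1 RPKM in the blastocysts. Even Mo-1, the highest morula, was below 8C-1 (limma adjusted p = 0.00175, and 0.00168 without Mo-2). MYO6, an actin motor, had 0.996, 0.073 and 0.985 RPKM in the morulae, 5.38 and 9.95 RPKM in the 8-cell embryos and 5.77 and 14.4 RPKM in the blastocysts. Mo-1, the highest morula, was below 8C-1, the lowest neighbour (limma adjusted p = 0.0117, and 0.0215 without Mo-2, but 0.101 to 0.144 without 8C-2 or Bl-2).

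ANXA2 and S100A10, which bind each other at the inner face of the plasma membrane, were both troughs. ANXA2 had 49.5, 0.121 and 8.55 RPKM in the morulae, 206 and 113 RPKM in the 8-cell embryos and 1263 and 759.8 RPKM in the blastocysts. Its blastocysts were the highest, and its morulae ranged widely (limma adjusted p = 0.0335, and 0.0195 without Mo-2, but 0.0518 to 0.209 without 8C-1, 8C-2, Mo-3, Bl-1 or Bl-2). S100A10 had 6.899, 0.07 and 5.04 RPKM in the morulae, 109 and 33.2 RPKM in the 8-cell embryos and 788 and 241 RPKM in the blastocysts. The lowest neighbour, 8C-2, was above Mo-1, the highest morula (limma adjusted p = 0.0196, and 0.0427 without Mo-2). Its call was lost without 8C-1 (0.208) and at a pseudocount of 0.1 (0.055). SH3BGRL, a small SH3-binding protein, had 1.29, 0 and 0 RPKM in the morulae, 178 and 84.4 RPKM in the 8-cell embryos and 106 and 45.03 RPKM in the blastocysts. It was at 0 in Mo-2 and Mo-3, and its change was -6.55 ± 0.56 against the 8-cell embryos and -5.73 ± 0.56 against the blastocysts on the log2 scale (limma adjusted p = 3.26e-05, and 4.4e-05 without Mo-2). CLIC1, a chloride intracellular channel protein, had 0.054, 0.043 and 2.32 RPKM in the morulae, 76.2 and 38.7 RPKM in the 8-cell embryos and 87.2 and 90.7 RPKM in the blastocysts. The groups did not overlap, and Mo-3 and 8C-2 came closest (limma adjusted p = 0.00519, and 0.0117 without Mo-2). The call was lost without 8C-1 (0.0699) and at a pseudocount of 0.1 (0.0581). S100P, an S100 protein of the trophectoderm list, had 0.796, 0 and 0.514 RPKM in the morulae, 7.49 and 3.55 RPKM in the 8-cell embryos and 1443 and 958 RPKM in the blastocysts. Its morulae were a little below the 8-cell embryos and far below the blastocysts (limma adjusted p = 0.0305, and 0.0762 without Mo-2). The call was also lost without 8C-1 or Mo-3 (0.052 to 0.244) and at a pseudocount of 0.1 (0.148).

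Enzymes and a carrier came next. ALDH7A1, an aldehyde dehydrogenase of lysine breakdown, had 1.15, 0.07 and 0.08 RPKM in the morulae, 47.8 and 44.7 RPKM in the 8-cell embryos and 32.9 and 21.2 RPKM in the blastocysts. No morula reached into the range of the neighbours, of which Bl-2 was the lowest (limma adjusted p = 4.95e-05, and 4.4e-05 without Mo-2). MPC1, a subunit of the mitochondrial pyruvate carrier, had 0.129, 0.051 and 0.175 RPKM in the morulae, 12.5 and 13.04 RPKM in the 8-cell embryos and 57.2 and 11.5 RPKM in the blastocysts. All morulae were below Bl-2, the lowest neighbour (limma adjusted p = 0.00304, and 0.0034 without Mo-2). GMPR, which converts GMP to IMP, had 0, 0.156 and 0.045 RPKM in the morulae, 8.27 and 21.5 RPKM in the 8-cell embryos and 16.8 and 8.45 RPKM in the blastocysts. Even Mo-2, the highest morula, was below 8C-1 (limma adjusted p = 0.00459, and 0.00448 without Mo-2, but 0.0669 to 0.0729 without 8C-2 or Bl-1). PRDX6, a peroxiredoxin, had 55.1, 0.514 and 36.5 RPKM in the morulae, 316 and 186 RPKM in the 8-cell embryos and 383 and 264 RPKM in the blastocysts. It was near 0 only in Mo-2 (limma adjusted p = 0.0479, and 0.00471 without Mo-2). The call was lost without 8C-1, 8C-2, Bl-1 or Bl-2 (0.115 to 0.266), after rescaling (0.0607) and at a pseudocount of 0.1 (0.052).

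FBXO6, an F-box protein that recognises glycoproteins, had 0, 0 and 0.041 RPKM in the morulae, 7.76 and 19.3 RPKM in the 8-cell embryos and 25.2 and 7.46 RPKM in the blastocysts. Mo-3, the highest morula, was below Bl-2, the lowest neighbour (limma adjusted p = 0.000386, and 0.000636 without Mo-2). NTAN1, an amidase of the N-degron pathway, had 1.58, 0.089 and 1.18 RPKM in the morulae, 68.1 and 58.3 RPKM in the 8-cell embryos and 21.2 and 17.3 RPKM in the blastocysts. The lowest neighbour, Bl-2, was above Mo-1, the highest morula (limma adjusted p = 0.00157, and 0.0015 without Mo-2). FBXO6 was at or near 0 in all 3 morulae. EFHD1, a mitochondrial calcium-binding protein, CCNI, an atypical cyclin, and ACYP1, an acylphosphatase, were the other troughs named by the rule. EFHD1 had 1.02, 0.224 and 0.665 RPKM in the morulae, 20.4 and 14.3 RPKM in the 8-cell embryos and 23.97 and 12.3 RPKM in the blastocysts (limma adjusted p = 3.94e-05, and 7.33e-05 without Mo-2). CCNI, which had the highest 8-cell levels of the 3, had 1.87, 0.296 and 2.85 RPKM in the morulae, 105 and 79.1 RPKM in the 8-cell embryos and 22.4 and 26.3 RPKM in the blastocysts (limma adjusted p = 0.000907, and 0.000444 without Mo-2). ACYP1 had 6.12, 0 and 0.185 RPKM in the morulae, 16.4 and 60.3 RPKM in the 8-cell embryos and 21.4 and 16.4 RPKM in the blastocysts. The groups did not overlap, and Mo-1 and Bl-2 came closest (limma adjusted p = 0.0196, and 0.0396 without Mo-2, but 0.0593 to 0.142 without 8C-2, Mo-3, Bl-1 or Bl-2). The one IMMRNTR entry named was IMMRNTR5783 (ST8SIA6-AS1 in the file), an antisense RNA whose reads cannot be told from those of the other strand. It had 10.01, 0.17 and 3.12 RPKM in the morulae, 43.3 and 87.2 RPKM in the 8-cell embryos and 62.1 and 20.6 RPKM in the blastocysts. Its call was lost when almost any library was left out (limma adjusted p = 0.0389, and 0.0836 without Mo-2, also 0.0526 to 0.41 without 8C-1, 8C-2, Mo-3, Bl-1 or Bl-2). It was also lost after rescaling (0.0703) and at a pseudocount of 0.1 (0.0728).

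TET2, which oxidises 5-methylcytosine, was the trough of the DNA methylation and chromatin list. It had 0.441, 0 and 0.041 RPKM in the morulae, 10.7 and 8.99 RPKM in the 8-cell embryos and 10.1 and 53.99 RPKM in the blastocysts. All morulae were under 1 RPKM and all neighbours far above it (limma adjusted p = 0.00394, and 0.00716 without Mo-2). The maintenance methyltransferase DNMT1 had 3.38, 8.04 and 3.16 RPKM in the morulae, 157 and 273 RPKM in the 8-cell embryos and 1.15 and 1.31 RPKM in the blastocysts. It was lower in morulae than in 8-cell embryos (limma adjusted p = 3.64e-08) but higher than in blastocysts (0.0463), so it was no trough. SOHLH2, a germline transcription factor, had 4.08, 0.138 and 5.73 RPKM in the morulae, 14.7 and 59.03 RPKM in the 8-cell embryos and 20.7 and 20.01 RPKM in the blastocysts. No morula reached into the range of the neighbours, of which 8C-1 was the lowest (limma adjusted p = 0.0429, and 0.0533 without Mo-2, also 0.184 to 0.234 without 8C-2, Bl-1 or Bl-2, and 0.0829 after rescaling). SESN1, a stress-induced target of p53, had 1.33, 0.029 and 0.05 RPKM in the morulae, 9.06 and 8.72 RPKM in the 8-cell embryos and 4.88 and 7.62 RPKM in the blastocysts. All morulae were below Bl-1, the lowest neighbour (limma adjusted p = 0.0303, and 0.0604 without Mo-2, also 0.0564 to 0.23 without 8C-1, 8C-2, Mo-3, Bl-1 or Bl-2).

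Metallothioneins, small cysteine-rich proteins that bind zinc and copper, were troughs at 3 of the 10 entries tested on chromosome 20 with Mo-2 in the fit and at 2 without it, MT1B being the one in both. Of all tested entries 0.852% were troughs, and 0.65% without Mo-2. Entries with the symbol MT1E on chromosome 10 (ENSMMUG00000031088) and chromosome 14 (ENSMMUG00000030878) were no troughs in either fit. MT1B had 2.24, 1.36 and 4.12 RPKM in the morulae, 169 and 286 RPKM in the 8-cell embryos and 289.8 and 41.9 RPKM in the blastocysts. The change was -6.03 ± 0.69 against the 8-cell embryos and -5.04 ± 0.69 against the blastocysts on the log2 scale (limma adjusted p = 0.000862, and 0.00116 without Mo-2). The unnamed entry ENSMMUG00000013684, described in the file as a metallothionein, had 85.1, 13.9 and 52.2 RPKM in the morulae, 4039 and 9807 RPKM in the 8-cell embryos and 945 and 155 RPKM in the blastocysts. ENSMMUG00000029123 had 0.323, 0.128 and 0.219 RPKM in the morulae, 11.8 and 18.6 RPKM in the 8-cell embryos and 438 and 51.1 RPKM in the blastocysts. Both were troughs (limma adjusted p = 0.044 and 0.0388), but not without Mo-2 (0.0927 and 0.0555). MT1E (ENSMMUG00000010378) had 0.189, 2.93 and 1.23 RPKM in the morulae, 4.802 and 49.95 RPKM in the 8-cell embryos and 1098 and 413 RPKM in the blastocysts. It was no trough with all libraries (limma adjusted p = 0.0823), but was one without Mo-2 (0.0401), without 8C-1 (0.011) and at a pseudocount of 0.1 (0.0349). These genes are near-identical copies, so reads may be split between them, and the entries are not independent of each other. The 8-cell embryos were the highest for ENSMMUG00000013684 and the blastocysts for MT1E, while every morula was below every neighbour in all 4. The other 6 metallothionein entries tested on the chromosome were no troughs (limma adjusted p = 0.292 to 1). All of them but MT4 were called lower against the pooled neighbours (limma adjusted p = 0.000283 to 0.0274). Without Mo-2 that pooled call was lost for ENSMMUG00000022243 (0.165) and ENSMMUG00000010374 (0.105).

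The stages from GV to 4C, whose means were not compared, show how the peaks and troughs stood before. Their 15 libraries did enter the filter and the estimate of spread behind every call. Their levels are therefore not independent of how the peaks and troughs were chosen. Of the 24 peaks, 23 had their highest stage mean of all 9 stages at the morula, and in 21 the 3 morulae were above all 19 other libraries. Of the 67 peaks without Mo-2, 58 had their highest mean at the morula, and in 56 Mo-1 and Mo-3 were above all 19. In 9 peaks (37.5%) no library from GV to 4C reached 1 RPKM, against 9.74% of all tested entries, and in 6 (25%) all 15 did, against 35.4%. For the 67 peaks without Mo-2 these were 32 (47.8%) and 18 (26.9%). Of the 122 troughs, 88 (72.1%) were at 1 RPKM or more in all 15 earlier libraries, and 19 (15.6%) in none. In 90 troughs (73.8%) the morula had the lowest mean of all 9 stages, and in 87 all 3 morulae were below all 19 other libraries. Of the 93 troughs without Mo-2, 69 (74.2%) were at 1 RPKM or more in all 15 earlier libraries and 16 (17.2%) in none, 70 had their lowest mean at the morula, and in 68 Mo-1 and Mo-3 were below all 19. By the rule, the morulae of all these peaks and troughs were already beyond both neighbours. How many of all tested entries had their highest or lowest mean at the morula was not counted. The median RPKM over the 122 troughs was 0.881, 0.05 and 0.608 in Mo-1, Mo-2 and Mo-3, 10.4 and 11.2 in the 8-cell embryos, 10.6 and 9.95 in the blastocysts, and 12.5 to 24.3 in the earlier libraries. Over the 93 without Mo-2 it was 0.909 in Mo-1 and 0.917 in Mo-3, 11.8 and 16.4 in the 8-cell embryos and 12.2 and 11.5 in the blastocysts. The median over all tested entries was also lowest in the morulae, at 1.001, 0.021 and 0.784 RPKM, against 2.38, 2.12, 1.24 and 1.97 RPKM in the neighbours. The detected entries, which were also fewest in the morulae, moved with these troughs, and their part in the result was not tested.

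**Figure D3:**
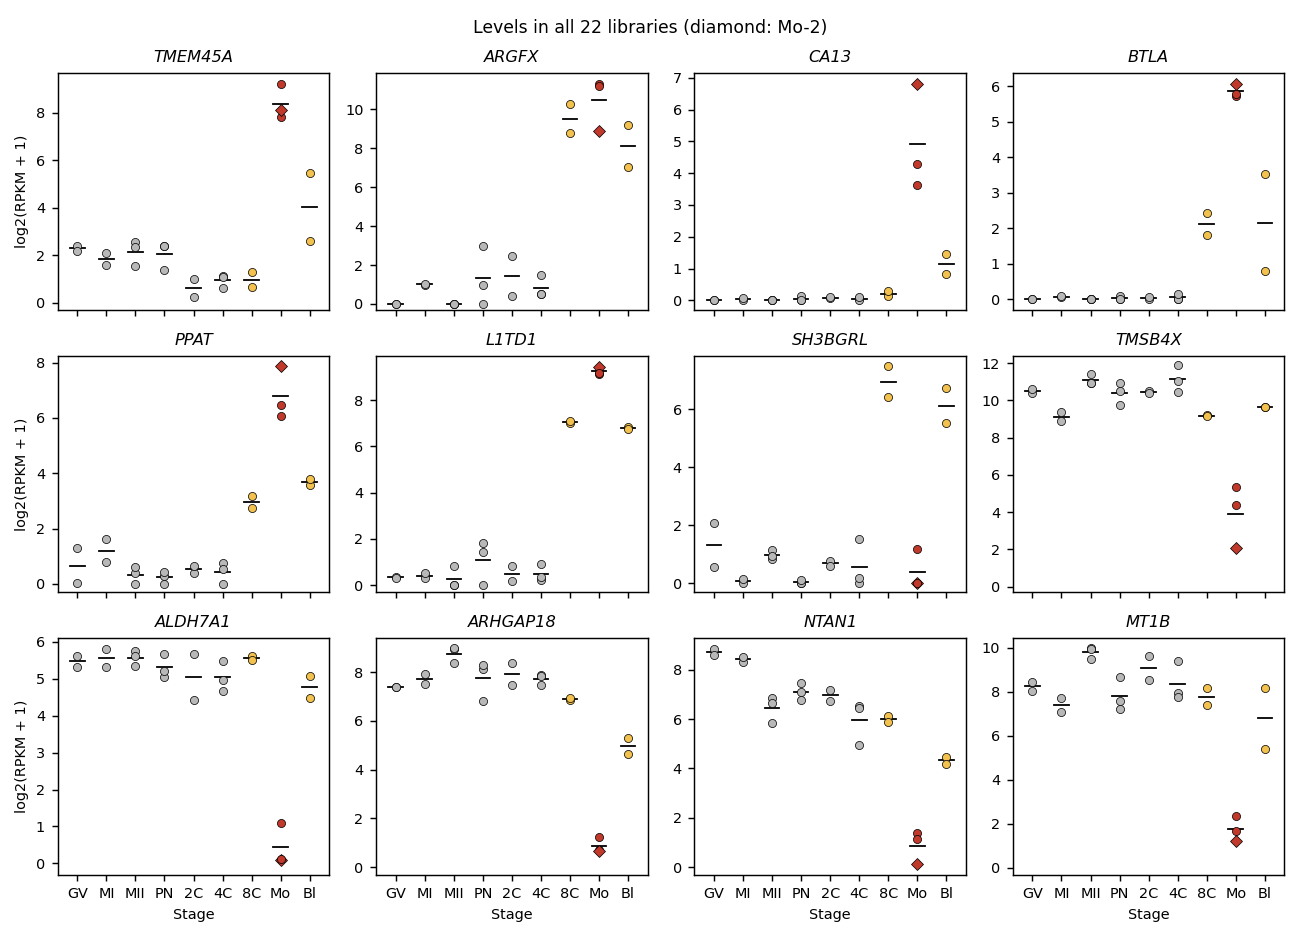
Log2(RPKM + 1) of 12 genes in all 22 libraries by stage, with 1 point per library, a black line at the stage mean, morulae in red (Mo-2 as a diamond) and the neighbour stages in yellow. TMEM45A, CA13, BTLA, PPAT and L1TD1 stand highest at Mo, the morulae of ARGFX overlap both neighbour stages, and TMSB4X, ALDH7A1, ARHGAP18, NTAN1 and MT1B stand lowest at Mo. SH3BGRL is low at Mo and also from GV to 4C.

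**Figure D4:**
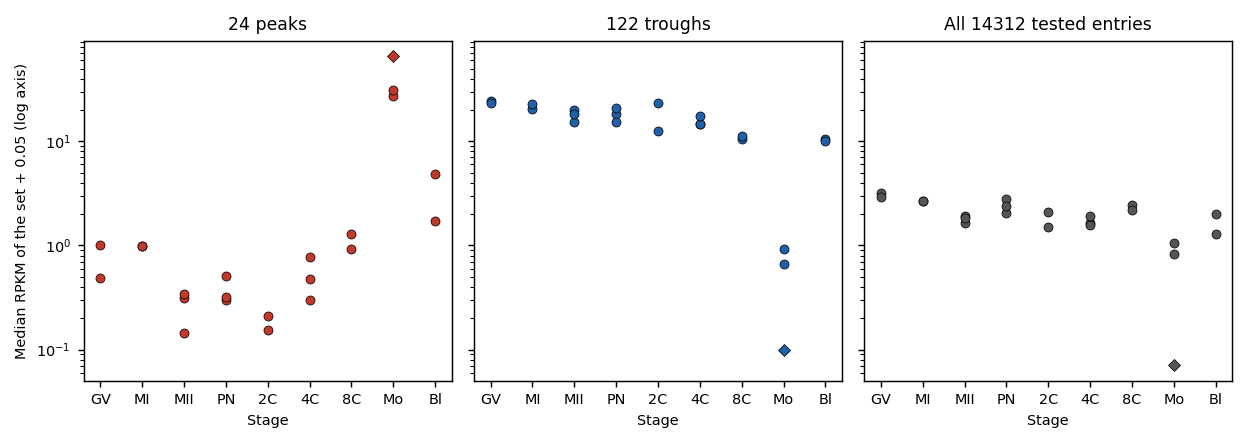
Median RPKM per library, plus 0.05 and on a log axis, over the 24 peaks, the 122 troughs and all 14312 tested entries, by stage, with Mo-2 as a diamond. The peaks stand out at Mo, the troughs lie between 10.4 and 24.3 RPKM from GV to 8C and under 1 RPKM at Mo, and the median of all entries is also lowest at Mo.

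Gene lists gave counts rather than tests, and their medians are set beside the -0.45 of all tested entries. Ribosome biogenesis genes were among the lists with the most rises against the pooled neighbours. Of 56 tested, 12 rose and 2 fell (13 and 1 without Mo-2), with a median log2 change of 0.14, and 0.36 without Mo-2. Over all tested entries 3.44% rose and 18.1% fell (4.11% and 12.7% without Mo-2). WDR75, of the small-subunit processome, had 71.9, 84.2 and 68.7 RPKM in the morulae, 32.5 and 14.6 RPKM in the 8-cell embryos and 28 and 16.4 RPKM in the blastocysts (limma adjusted p = 0.00863 against the pooled neighbours, and 0.0217 without Mo-2). PNO1, an assembly factor of the small subunit, had 9.32, 13.6 and 12.6 RPKM in the morulae, 3.81 and 3.87 RPKM in the 8-cell embryos and 5.44 and 4.26 RPKM in the blastocysts (limma adjusted p = 0.00106, and 0.00506 without Mo-2). In both genes the morulae were above all 4 neighbours, though neither was among the 24 peaks. After rescaling with Mo-2 kept, both were peaks (limma adjusted p = 0.0378 for WDR75 and 0.0183 for PNO1). PNO1 was also a peak with no filter (0.043), but its pooled call was lost at a pseudocount of 0.1 (0.0585). Of 72 cytosolic ribosomal protein genes, 6 rose and none fell, and 21 rose and none fell without Mo-2, with medians of 0.21 and 0.87. The median was 1.29 against the 8-cell embryos but -0.85 against the blastocysts, so the median gene lay between its neighbours. RPL19, of the large subunit, had 1313, 997 and 1874 RPKM in the morulae, 208 and 167 RPKM in the 8-cell embryos and 888 and 604 RPKM in the blastocysts (limma adjusted p = 0.00192, and 0.00106 without Mo-2). Unlike the median of its list, RPL19 was above both neighbours. Ribosomal protein genes have many processed copies, so their reads are uncertain. Neither list held any of the 24 peaks. After rescaling 20 of the biogenesis and 19 of the ribosomal protein genes rose against the pooled neighbours, where 1034 of all 14312 tested entries rose.

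Lists of genes known from the flanking stages followed. Of 28 tested trophectoderm genes, 16 fell and none rose (15 and none without Mo-2, 16 and none after rescaling), with a median of -1.06 on the log2 scale, where 18.1% of all tested entries fell (12.7% without Mo-2). Against each neighbour alone the median was -0.496 (8-cell embryos) and -1.23 (blastocysts). GATA3, a trophectoderm regulator, had 0.918, 0 and 0.042 RPKM in the morulae, 1.39 and 0.326 RPKM in the 8-cell embryos and 15.9 and 21.2 RPKM in the blastocysts (limma adjusted p = 9.92e-06 against the pooled neighbours, and 8.95e-05 without Mo-2). The keratin KRT18 had 6.79, 69.2 and 3.96 RPKM in the morulae, 2.74 and 1.81 RPKM in the 8-cell embryos and 1206 and 879.7 RPKM in the blastocysts, with Mo-2 well above the other morulae. Its call (limma adjusted p = 0.0218, and 1.96e-05 without Mo-2) was lost without 8C-1, Mo-1, Mo-3 or Bl-1 (0.0529 to 0.132). It was also lost at a pseudocount of 0.1 (0.106) and after rescaling (0.156). Of 38 oocyte and maternal genes, 22 fell and none rose (21 and none without Mo-2, 21 and 1 after rescaling), with a median of -1.62. The median was -3.19 against the 8-cell embryos but 0.14 against the blastocysts. BTG4, which takes part in maternal RNA decay, had 15.3, 3.37 and 27.3 RPKM in the morulae, 415 and 402 RPKM in the 8-cell embryos and 14.4 and 5.21 RPKM in the blastocysts (limma adjusted p = 0.00181, and 0.00325 without Mo-2). Of 17 genes of 8-cell activation, 8 fell and 2 rose (7 and 1 without Mo-2, 8 and 3 after rescaling), with a median of -1.02. Their median was -1.925 against the 8-cell embryos and -0.345 against the blastocysts. HIPK3, a kinase of that list, had 1.41, 0.012 and 0.69 RPKM in the morulae, 64.1 and 46.6 RPKM in the 8-cell embryos and 2.18 and 2.405 RPKM in the blastocysts. The morulae were far below the 8-cell embryos (limma adjusted p = 1.98e-08) and not called against the blastocysts (0.0896). Over all tested entries 3.44% rose (4.11% without Mo-2), and after rescaling 1034 of the 14312 rose and 2460 fell. These lists held 2 troughs with Mo-2 in the fit, S100P and SOHLH2, and none without it.

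Junction, polarity and fluid transport genes act in compaction and cavity formation. Of 37 tested, 2 rose and 12 fell (2 and 10 without Mo-2, 5 and 9 after rescaling), with a median of -0.44, and -0.61 without Mo-2, against -0.45 and -0.32 for all entries. Over all tested entries 3.44% rose and 18.1% fell (4.11% and 12.7% without Mo-2), so falls took a larger share of this list. The difference was not tested. After rescaling 1034 of all 14312 tested entries rose and 2460 fell. The adherens junction gene CTNNA1 had 11.2, 15.05 and 19.3 RPKM in the morulae, 37.7 and 91.7 RPKM in the 8-cell embryos and 40.8 and 40.5 RPKM in the blastocysts (limma adjusted p = 0.00287, and 0.00421 without Mo-2), below every neighbour. The genes that rose were PALS1, of the Crumbs polarity complex, and RDX (radixin), which ties the membrane to actin. PALS1 had 20.9, 90.9 and 23.5 RPKM in the morulae, 2.86 and 5.39 RPKM in the 8-cell embryos and 5.62 and 7.92 RPKM in the blastocysts. RDX had 198, 1682 and 209 RPKM in the morulae, 32.2 and 34.8 RPKM in the 8-cell embryos and 92.01 and 94.1 RPKM in the blastocysts (limma adjusted p = 0.000573 for PALS1 and 0.00209 for RDX). In both, Mo-2 was several times above Mo-1 and Mo-3, and the calls held without it (0.00215 and 0.00506). The cadherin CDH1 had 0.099, 0 and 0.056 RPKM in the morulae, 3.26 and 1.26 RPKM in the 8-cell embryos and 0.341 and 8.12 RPKM in the blastocysts. Its call (limma adjusted p = 0.0422) was lost without 8C-1, Mo-1, Mo-2, Mo-3 or Bl-2 (0.0724 to 0.202).

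Counts of several metabolic lists moved with Mo-2 and with rescaling. Of 51 oxidative phosphorylation genes, 13 fell and none rose, but 5 fell and none rose without Mo-2, and 5 fell and 1 rose after rescaling with Mo-2 kept. Over all tested entries 18.1% fell and 3.44% rose, and 12.7% and 4.11% without Mo-2. After rescaling 2460 of all 14312 tested entries fell and 1034 rose. The median of the oxidative phosphorylation list was -0.81 against the pooled neighbours and -0.03 without Mo-2. It was 0.56 against the 8-cell embryos but -2.40 against the blastocysts. Of 51 mitochondrial ribosomal protein genes, 6 fell and none rose, but without Mo-2 3 rose and 3 fell, and after rescaling 6 rose and 5 fell. The median changed sign, at -0.46 with Mo-2, 0.12 without it and 0.06 rescaled. It was 0.76 against the 8-cell embryos and -1.56 against the blastocysts. Of 21 glycolysis and glucose transport genes, 5 rose and 5 fell (4 and 5 without Mo-2, 5 and 4 after rescaling), with a median of -0.71, and ENO2 was a peak. The lactate and pyruvate transporter SLC16A1 had 304, 1030.0 and 225 RPKM in the morulae, 123 and 89.4 RPKM in the 8-cell embryos and 8.44 and 47.2 RPKM in the blastocysts (limma adjusted p = 0.00164, and 0.00916 without Mo-2). TALDO1, of the pentose phosphate pathway, had 44.2, 1.34 and 66.6 RPKM in the morulae, 140.5 and 185 RPKM in the 8-cell embryos and 463 and 237 RPKM in the blastocysts. It was no trough with all libraries (limma adjusted p = 0.124), but was one without Mo-2 (0.0484) and without Mo-3 (0.0226). Of 25 sterol and lipid synthesis genes, 2 rose and 5 fell (2 and 1 without Mo-2, 3 and 4 after rescaling), with a median of -0.37. Of 27 solute carrier genes 5 rose and 7 fell (3 and 7 without Mo-2, 6 and 7 after rescaling), with a median of -0.49.

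Counts of the other lists against the pooled neighbours were as follows. Of 28 pluripotency genes, 8 fell and 4 rose (7 and 4 without Mo-2, 8 and 5 after rescaling, median log2 change -0.21, and -0.002 rescaled), of 13 primitive endoderm genes, 3 fell and 1 rose (1 and 1 without Mo-2, 4 and 1 after rescaling, median log2 change -0.86, and -0.78 rescaled) and of 6 PRD-like homeobox genes, 1 fell and 1 rose (1 and 2 without Mo-2, 1 and 2 after rescaling, median log2 change 0.11, and 0.39 rescaled). Of 47 DNA replication and cell cycle genes, 6 fell and 2 rose (4 and 3 without Mo-2, 3 and 7 after rescaling, median log2 change -0.15, and 0.43 rescaled), of 8 histone genes, 1 fell and 1 rose (1 and 1 without Mo-2, 1 and 1 after rescaling, median log2 change -0.66, and -0.48 rescaled) and of 29 proteasome subunit genes, 1 fell and 0 rose (1 and 0 without Mo-2, 1 and 0 after rescaling, median log2 change -0.31, and 0.28 rescaled). Of 31 heat shock and chaperone genes, 6 fell and 1 rose (6 and 0 without Mo-2, 4 and 5 after rescaling, median log2 change 0.02, and 0.59 rescaled), of 33 stress and p53 response genes, 7 fell and 3 rose (8 and 1 without Mo-2, 6 and 3 after rescaling, median log2 change -0.46, and -0.29 rescaled) and of 23 redox and metal homeostasis genes, 7 fell and 2 rose (6 and 2 without Mo-2, 6 and 2 after rescaling, median log2 change -0.77, and -0.48 rescaled). Of 41 DNA methylation and chromatin genes, 10 fell and 0 rose (7 and 1 without Mo-2, 10 and 3 after rescaling, median log2 change -0.43, and -0.31 rescaled) and of 42 spliceosome genes, 5 fell and 0 rose (5 and 0 without Mo-2, 3 and 3 after rescaling, median log2 change -0.27, and 0.24 rescaled). The cell cycle list thus had more falls than rises before rescaling and fewer after it, as had the heat shock list. RRM1, a subunit of ribonucleotide reductase, had 342, 291 and 388 RPKM in the morulae, 132 and 113 RPKM in the 8-cell embryos and 41.4 and 69.6 RPKM in the blastocysts, above all 4 neighbours (limma adjusted p = 0.000703, and 0.00074 without Mo-2). CDK4, a G1 kinase, had 3.51, 4.54 and 5.45 RPKM in the morulae, 45.1 and 15.9 RPKM in the 8-cell embryos and 30.2 and 18.7 RPKM in the blastocysts, below all 4 (limma adjusted p = 0.0012, and 0.00385 without Mo-2). The CDK4 call was lost at a pseudocount of 0.1 (limma adjusted p = 0.061). Of all tested entries 18.1% fell and 3.44% rose (12.7% and 4.11% without Mo-2). After rescaling 2460 of the 14312 fell and 1034 rose, and their median log2 change was -0.32. No mitochondrially encoded gene was found among the deposited entries by the 26 symbols listed.

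Few of the listed markers of cells that could adhere to an embryo were tested, and their summed levels are given. The summed level of the 5 tested of 21 cumulus and granulosa cell markers was 36.7, 29.2 and 15.8 RPKM in the morulae, 44.6 and 43.7 RPKM in the 8-cell embryos and 75.9 and 39.6 RPKM in the blastocysts, of which KITLG made up most in Mo-1, Mo-2 and Mo-3 (33.5, 28.7 and 9.44 RPKM). The 3 tested of 14 blood cell markers summed to 4.77, 4.4 and 7.04 RPKM in the morulae, 0.35 and 0.51 RPKM in the 8-cell embryos and 26.6 and 18.4 RPKM in the blastocysts. The 4 tested of 13 fibroblast and feeder markers summed to 1.99, 19.2 and 3.57 RPKM in the morulae, 8.85 and 14.3 RPKM in the 8-cell embryos and 2.32 and 5.94 RPKM in the blastocysts. Against the pooled neighbours 1 of these genes rose, KITLG (limma adjusted p = 0.0108, 0.0471 without Mo-2, 0.0501 to 0.0529 without Mo-1 or Bl-1 and 0.0551 at a pseudocount of 0.1), and 4 fell (3 without Mo-2). Over all tested entries 3.44% rose and 18.1% fell (4.11% and 12.7% without Mo-2). None was a peak or a trough, and the other listed markers did not pass the filter or are not among the entries.

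**Figure D5:**
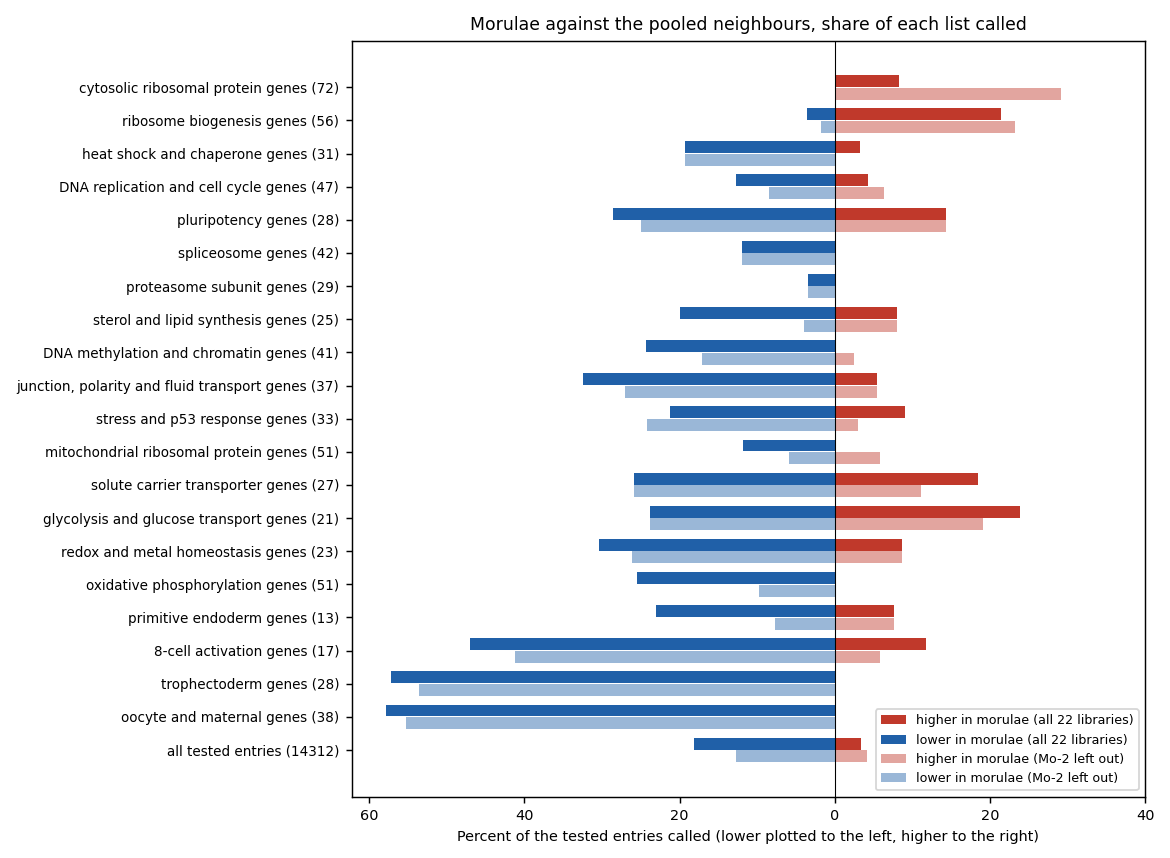
Percent of tested entries of each list with at least 10 tested that were called higher (red, to the right) or lower (blue, to the left) in morulae than in the pooled neighbours, with the number tested in brackets; dark bars are all 22 libraries and pale bars the fit without Mo-2. Oocyte and trophectoderm genes reach farthest to the left with no red bar, ribosomal protein genes have a red bar that is longer without Mo-2, and all tested entries are at the bottom.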

How the data were processed

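The authors deposited 1 table of RPKM values (reads per kilobase and per M reads) for 35468 entries in 22 libraries, with columns matched to samples by title. Per the submitters' processing notes the build is Mmul_8.0.1; the file names none, and positions are given as they stand in it. How reads were aligned, counted and annotated, and whether strand was used, is not given in the sources used here. Depth was estimated from whole-read steps in entries spanning under 200 bp (434 of 464 values, 93.5%, within 0.05 of a whole read).

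Values were transformed to log2(RPKM + 1), which understates changes of low genes. The 14312 entries that reached 1 RPKM in 2 or more libraries went into limma 3.58.1 in R 4.3.3, with 1 mean per stage over all 22 libraries, trended and robust moderation and 2-sided tests. Alternatives were another pseudocount, other filters, median-of-ratios scaling, fits of fewer libraries, a replicate block and leaving out each library. Tables and figures were made with Python 3.11.15, numpy 2.4.6, pandas 2.3.3 and matplotlib 3.10.9. Self-tests were run on simulated data. The groups, members, lists and panel were chosen with earlier results of these data known.

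Named genes are the 12 peaks and 12 troughs with an ENSMMUG identifier and a symbol, non-overlapping groups and at least 10 RPKM on average in morulae (peaks) or in each neighbour stage (troughs), ranked by the smaller of their 2 changes; up to 8 more in each direction without Mo-2; up to 4 IMMRNTR entries; up to 4 called members of each list, of which only examples are printed; and the panel. 1 gene that the rule names is not reported here. Symbols came from a name table (15556) or the file (6032), and 7007 ENSMMUG entries had none. Names of IMMRNTR entries could not be checked.

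The labels do not say that equal replicate numbers pair the samples, and no pairing was used. Correlations of deviations between same-numbered libraries were -0.098 to 0.12. With so few libraries per stage they cannot show whether libraries share an origin.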

Additional observations from a re-analysis of the deposited data

How the results depend on the processing

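Counts are given as higher then lower for the pooled comparison and as peaks then troughs for both neighbours. A pseudocount of 0.1 gave 15 peaks and 277 troughs, no filter 17 and 94, a filter of 5 RPKM 27 and 130, and calling each neighbour on its own 104 and 394. Leaving out 1 library gave 12 to 67 peaks, 76 to 138 troughs, 358 to 588 and 1816 to 2648 pooled calls, 442 to 1143 and 2485 to 2948 against 8-cell embryos, and 99 to 443 and 1050 to 1921 against blastocysts. Rescaling gave 74 peaks, 1034 higher pooled, 1258 higher than 8-cell embryos and 660 higher than blastocysts. In a fit of only the 7 libraries, limma gave 157 and 1624 against 8-cell embryos, 12 and 277 against blastocysts, and 0 and 0 for the pooled and both-neighbour calls (378 and 3147, and 82 and 444, at an unadjusted p under 0.05). Treating the 7 libraries as 2 groups gave 0 and 0 (230 and 1060 unadjusted). The replicate block gave 19 peaks, 100 troughs and 431 and 2496 pooled calls. Since the labels do not say that equal numbers are pairs, this says nothing of pairing. With 2 or 3 embryos per stage and fewer entries detected in all morulae, low genes listed at 0 cannot be told from missed ones, and the cause of these differences was not tested.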

Other observations

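Some genes that were higher in morulae lie next to each other; the stretches were chosen after their values were seen, and positions are as deposited. On chromosome 11, SLCO1A2 (21629188 to 21706693) and PYROXD1 (21798956 to 21833969) were both peaks, and GOLT1B (21866774 to 21881542) was a peak without Mo-2 and, with it, after rescaling. LDHB (21985221 to 22008230), a lactate dehydrogenase subunit, had 2735, 1248 and 3670.3 RPKM in the morulae, 14.6 and 125 RPKM in the 8-cell embryos and 5898 and 3132 RPKM in the blastocysts, higher in morulae than in 8-cell embryos only. RECQL, a helicase gene between PYROXD1 and GOLT1B, had 22.6, 0.971 and 7.11 RPKM in the morulae, 11.3 and 0.078 RPKM in the 8-cell embryos and 10.7 and 8.79 RPKM in the blastocysts and was not called. IMMRNTR2926, which the file names PYROXD1 and which overlaps RECQL, had 1.92, 46.1 and 1.74 RPKM in the morulae, 0 and 0 RPKM in the 8-cell embryos and 0.281 and 1.43 RPKM in the blastocysts, higher than the pooled neighbours (limma adjusted p = 0.0126) but no peak (0.38). The 3 entries with all morulae above all 4 neighbours, of 6 tested in this stretch, were SLCO1A2 and both PYROXD1 entries, and without Mo-2 GOLT1B made it 4.

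On chromosome 7, ENSMMUG00000015833 (83277301 to 83277915), described in the file as a precursor of a ribonuclease-like protein, had 18.6, 74.7 and 38.6 RPKM in the morulae, 0 and 1.74 RPKM in the 8-cell embryos and 1.47 and 3.29 RPKM in the blastocysts and was a peak (limma adjusted p = 0.000613, and 0.000558 without Mo-2). ENSMMUG00000029450 (83271387 to 83272001) had 17.2, 0.403 and 20.2 RPKM in the morulae, 0 and 0.289 RPKM in the 8-cell embryos and 0 and 0.909 RPKM in the blastocysts, and RNASE1 (83531357 to 83533534), a secreted ribonuclease, had 2.26, 0 and 1.91 RPKM in the morulae, 0 and 0 RPKM in the 8-cell embryos and 0 and 0 RPKM in the blastocysts. Both were peaks without Mo-2 and not with it, and ENSMMUG00000029450 also with it after rescaling. RNASE4, between them and RNASE1, had 0, 0.044 and 0 RPKM in the morulae, 5.75 and 0.785 RPKM in the 8-cell embryos and 0.702 and 1.93 RPKM in the blastocysts, with every morula below every neighbour (limma adjusted p = 0.00813 against the pooled neighbours). Of 6 entries tested in this stretch, 1 had all 3 morulae above all 4 neighbours, and 4 had Mo-1 and Mo-3 above them. Neighbouring or similar entries may share reads, which was not tested.

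Among the 82 entries at 10 RPKM or more in Mo-2 and under 1 RPKM in Mo-1 and Mo-3, the highest with a symbol and an ENSMMUG identifier was VEZF1, with 0.726, 50.02 and 0.012 RPKM in the morulae, 0.488 and 5.81 RPKM in the 8-cell embryos and 1.59 and 3.44 RPKM in the blastocysts.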
